A study of Mus musculus with 4 samples.

Results

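The 9 genes described here encode the glutathione, catalase and superoxide dismutase enzymes that dispose of reactive oxygen in the cell. They are *Gclc*, *Gclm* and *Gss* for the making of glutathione, *Gsr* for its recycling, *Gpx1*, *Gpx4* and *Cat* for the removal of peroxides, and *Sod1* and *Sod2* for the removal of superoxide. They were chosen by name, not by a measured value, though with earlier results of these data known. All 9 were found among the 21957 genes of the expression table.

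The study asked what tubastatin A (TubA), a small molecule made to inhibit the cytoplasmic deacetylase HDAC6, does to the transcripts of mouse oocytes as they mature. Oocytes came from B6D2F1 hybrid (C57BL/6 x DBA) females aged 6 to 8 weeks that had been primed with pregnant mare serum gonadotropin, had their cumulus cells taken off with hyaluronidase, and were held in M16 medium. Each library was made from a pool of 100 oocytes, with 1 library for each of the 4 conditions. With no replicates, no difference below has an error or a p-value, and neighbouring values in any order of libraries cannot be told apart by their spread. The GV library is untreated oocytes at the germinal vesicle stage, still arrested in the first meiotic prophase. The MII library is untreated too and was matured without drug for 12 h to the second meiotic metaphase. Its sample title calls it an embryo, although the methods describe no fertilisation. TubA-10 and TubA-20 were cultured with 10 and 20 μM TubA in DMSO by their titles and the methods, while the treatment field of the labels has 20 and 11 μM for the same samples. Oocytes at the higher dose were described as failing to reach metaphase II. TubA-20 thus differs from MII in meiotic stage as well as in drug. The paper also describes treated oocytes, with no dose named there, as impaired between meiosis I and II, so TubA-10 may differ in stage too. MII oocytes were taken only if they had extruded a polar body, and no such selection is described for the treated pools. No knockout or transgene was involved.

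Superoxide leaks mainly from the respiratory chain, and superoxide dismutases turn it into hydrogen peroxide, SOD1 with copper and zinc in the cytosol and SOD2 with manganese in the mitochondrial matrix. Catalase in peroxisomes and glutathione peroxidases then reduce the peroxide, the latter by oxidising glutathione, which glutathione reductase restores with NADPH. A fully grown oocyte builds a store of glutathione during maturation, is nearly silent in transcription, and lives on stored mRNA whose poly(A) tails are shortened or lengthened as meiosis goes on.

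*Gpx1* and *Gpx4* are selenoproteins, in which a UGA codon within the reading frame is read as selenocysteine, the residue of the active site. Those codons are shown here for the glutathione peroxidases described, whose transcripts moved apart in these libraries. *Gpx2* and *Gpx3* have such a codon as well, and a tie between the codon and these courses was not tested. The sequences are from the GENCODE M21 transcripts on GRCm38, written 5′ to 3′, with the recoded TGA in capitals.
Gpx1 codon: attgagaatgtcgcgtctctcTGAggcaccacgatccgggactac
Gpx4 codon: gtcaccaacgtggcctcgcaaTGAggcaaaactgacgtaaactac
The first stretch is chr9:108339430-108339474 on the plus strand, in exon 1 of 2 of *Gpx1*, and its TGA is codon 47. The second is chr10:80054716-80054760 on the plus strand, in exon 3 of 7 of *Gpx4*, and its TGA is codon 73 of the annotated principal transcript.

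Levels are FPKM, fragments per length of transcript and number of mapped fragments, so levels of different genes can be set side by side. Differences between libraries are given as the log2 ratio of FPKM + 1, a scale that shrinks differences at low values, and a gene is called more than 2-fold different when this passes 1 or −1. The 9193 genes that reached 1 FPKM in all 4 libraries had a median log2 ratio to GV of 0.16 in TubA-10, 0.23 in TubA-20 and 0.14 in MII, so a gene that kept pace with the median gene sits at those values and not at 0. Low values give relative depths of 1.7 for TubA-10, 0.897 for TubA-20 and 1.62 for MII against GV, so GV and TubA-20 are the shallower libraries. The read totals printed in the paper are also lowest in these libraries, but there TubA-20 has more reads than GV. Pools of oocytes do not separate fewer transcripts per cell from fewer cells, and oligo(dT) selection does not separate less mRNA from shorter poly(A) tails. All 10 oocyte markers were at 1 FPKM or more in every library, led by *Dppa3* (5806 FPKM in GV, 8610 in TubA-10, 7960 in TubA-20 and 6858 in MII). The 12 cumulus and granulosa markers summed to between 163 FPKM in GV and 426 in TubA-20, most of it *Serpine2* (138 and 406 FPKM), while the granulosa factor *Foxl2* was at 0 in all 4 libraries. *Inha*, an inhibin subunit of granulosa cells, was at 7.50 FPKM in GV and between 0.239 and 0.314 in the others, and *Amh* was at 0.127 in GV and at 0 elsewhere. Haemoglobin and other red cell genes were at 0 apart from *Alas2* at 0.0347 FPKM in MII, and the 6 macrophage and leukocyte markers summed to between 7.43 and 8.06 FPKM, mostly *Csf1r* (5.15 to 6.34).

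Together the 9 genes summed to 944 FPKM in GV, 477 in TubA-10, 350.0 in TubA-20 and 569 in MII, or 0.151%, 0.0808%, 0.0558% and 0.10% of all FPKM. GV had the highest sum and TubA-20 the lowest, and 3 genes made most of it in every library. *Sod1* took 64.2% of the sum in GV, 46.2% in TubA-10, 34.5% in TubA-20 and 39.4% in MII. *Gpx1* took 5.17%, 18.8%, 34.2% and 33.5% in the same order. *Gpx4* took 24.5%, 21.5%, 12.8% and 16.4%. GV was thus a library of *Sod1* and *Gpx4*, whereas in TubA-20 *Sod1* and *Gpx1* stood almost level. The order of the 9 genes in GV was *Sod1*, *Gpx4*, *Gpx1*, *Gclm*, *Sod2*, *Gclc*, *Gss*, *Gsr* and *Cat*, and TubA-10 kept the first 6 places of it. In TubA-20 and MII *Gpx1* stood above *Gpx4*, with *Gclm*, *Sod2* and *Gclc* following in both.

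**Figure D1:**
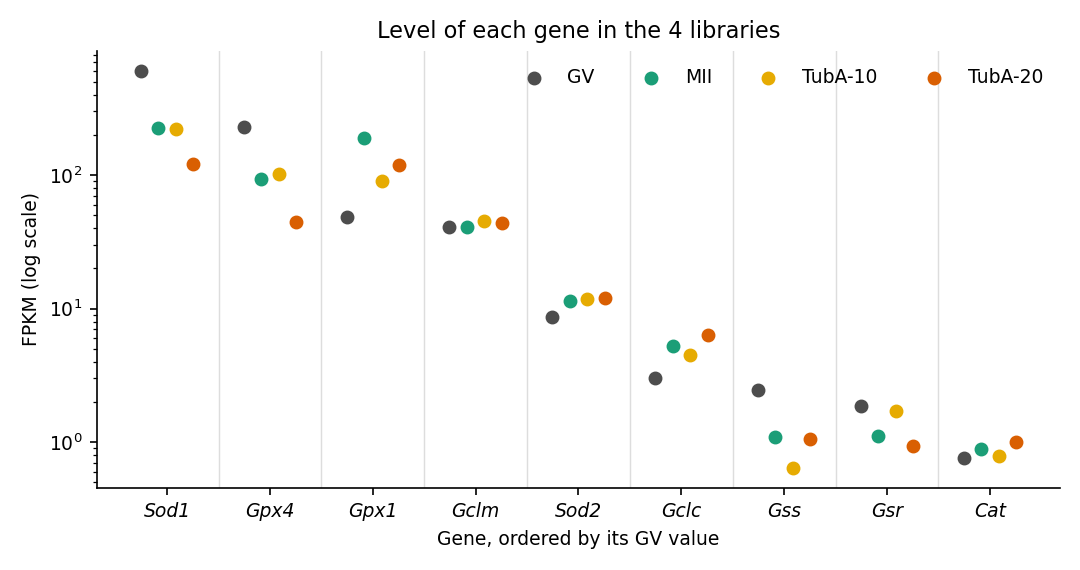
FPKM of the 9 genes on a log axis, 1 point per library and gene, in order of the GV value. *Sod1* and *Gpx4* are highest in GV and lowest in TubA-20, *Gpx1* is lowest in GV, and *Gclm* is nearly level at 40.7 to 45 FPKM.

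The widest range in FPKM was that of *Sod1*, the cytosolic copper-zinc enzyme (chromosome 16, 90220754 to 90226329, plus strand, 5 exons). It was at 606 FPKM in GV, 221 in TubA-10, 121 in TubA-20 and 224 in MII. GV stood far above the cultured libraries, TubA-10 and MII lay together, and TubA-20 was the lowest. Its rank among all genes went from 183 in GV to 509 in TubA-10, 475 in MII and 982 in TubA-20. The log2 difference against GV was −1.45 in TubA-10, −2.32 in TubA-20 and −1.43 in MII. Between the matured and treated libraries it was −0.02 for TubA-10 against MII and −0.89 for TubA-20 against MII. The former turned to 0.01 when the libraries were set to equal *Gapdh*, and the latter passed 2-fold at −1.04 under that scaling, at −1.03 with equal FPKM sums and at −1.01 with equal upper quartiles. A processed pseudogene, *Gm8566*, matches 465 of the 641 bases of the *Sod1* transcript at 97.8%, and the gene overlaps *Scaf4* on the opposite strand by 650 bases. *Scaf4* itself was at 13.3, 13.2, 26.0 and 20.1 FPKM in GV, TubA-10, TubA-20 and MII. The libraries were made and counted by strand, and the part of the overlap in the values of *Sod1* was not tested. The pseudogene is not in the table, so how reads were shared with it is uncertain.

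*Sod2*, the manganese enzyme of mitochondria (chromosome 17, 13006846 to 13040063, plus strand), moved little and the other way. It was at 8.61 FPKM in GV, 11.7 in TubA-10, 12 in TubA-20 and 11.3 in MII. The cultured libraries lay close together and all above GV, by 0.36 (MII), 0.41 (TubA-10) and 0.44 (TubA-20) on the log2 scale. Among themselves the cultured libraries differed by 0.03 to 0.08, and 3 of the 4 scalings turned the sign of *Sod2* in TubA-20 against MII. Its long transcript, 5861 bases, shares stretches of at least 200 bases with transcripts of 11 other genes at 90% identity or more. The ratio of *Sod1* to *Sod2* FPKM, which no scaling of a library can change, was 70.4 in GV, 18.8 in TubA-10, 10.1 in TubA-20 and 19.8 in MII. By FPKM the cytosolic transcript thus outweighed the mitochondrial one in all 4 libraries, most in GV and least in TubA-20. FPKM divides by transcript length, and whether the long form of *Sod2* is the one in these oocytes was not examined.

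*Gpx4*, the phospholipid hydroperoxidase that protects membranes from lipid peroxidation (chromosome 10, 80047166 to 80056439, plus strand), had nearly the same course as *Sod1*. It was at 231 FPKM in GV, 102 in TubA-10, 44.7 in TubA-20 and 93.6 in MII. GV was the highest, TubA-10 and MII were alike, and TubA-20 held less than either. Against GV the log2 difference was −1.17 in TubA-10, −2.35 in TubA-20 and −1.30 in MII. It was the only one of the 9 genes past 2-fold in TubA-20 against MII, at −1.05, and in TubA-20 against TubA-10, at −1.18, both with the FPKM as deposited. TubA-10 stood 0.13 above MII. Transcripts annotated under *Gpx4-ps2* and AC122253.3 match 762 and 535 of the 959 bases of *Gpx4* at 99.7% and 95.1%, and neither is in the table, so the level of *Gpx4* carries the same uncertainty as that of *Sod1*.

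*Gpx1*, the abundant cytosolic glutathione peroxidase (chromosome 9, 108338903 to 108340343, plus strand, 2 exons), went against both. It was at 48.8 FPKM in GV, 89.7 in TubA-10, 119.6 in TubA-20 and 191 in MII. Here GV was the lowest and MII the highest, with the treated libraries between them. The log2 difference against GV was 1.95 in MII, a plain ratio of 3.91, and it stood at percentile 99.9 of the 10898 genes with at least 1 FPKM in some library. In TubA-20 it was 1.28, at percentile 93.9, and in TubA-10 0.86, at percentile 96.5. Against MII, *Gpx1* was lower by 1.08 in TubA-10 and by 0.67 in TubA-20. The TubA-10 value lay at percentile 0.193 of all genes in that comparison. TubA-20 was 0.41 above TubA-10, so the library of the higher dose lay nearer to MII. No near-identical copy of *Gpx1* was found in the annotation at 90% identity over 200 bases.

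Within a library the balance of both peroxidases is free of scaling. The FPKM ratio of *Gpx4* to *Gpx1* was 4.74 in GV, 1.14 in TubA-10, 0.374 in TubA-20 and 0.490 in MII. *Gpx4* outweighed *Gpx1* in GV, they were near parity in TubA-10, and *Gpx1* outweighed *Gpx4* in MII and TubA-20. The low ratio in MII came with the highest *Gpx1* of the 4 libraries, and that in TubA-20 with the lowest *Gpx4*.

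**Figure D2:**
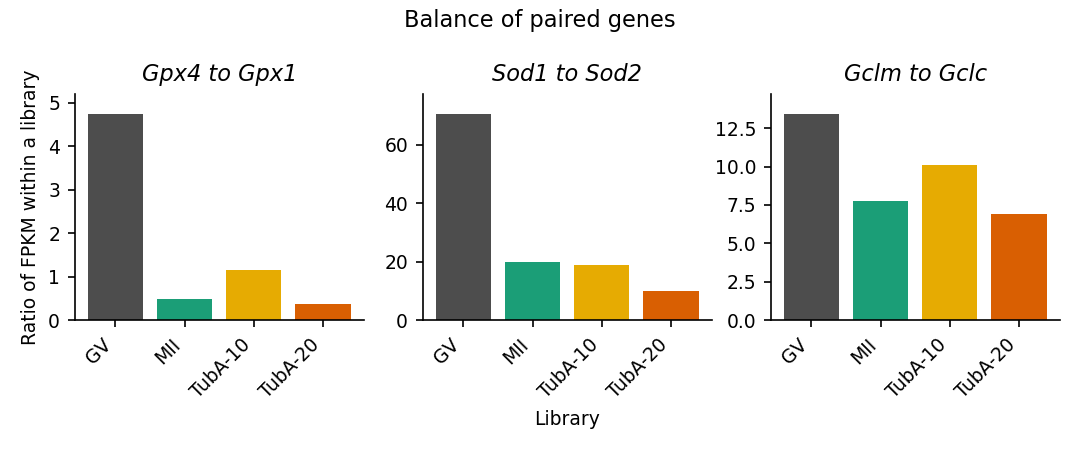
Ratio of FPKM within each library for *Gpx4* to *Gpx1*, *Sod1* to *Sod2* and *Gclm* to *Gclc*, 1 bar per library on axes from 0. GV has the highest ratio in all 3 panels (4.74, 70.4 and 13.4) and TubA-20 the lowest (0.374, 10.1 and 6.90).

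*Cat*, which encodes catalase (chromosome 2, 103453849 to 103485160, minus strand), was low in all 4 libraries. It was at 0.762 FPKM in GV, 0.788 in TubA-10, 1.0 in TubA-20 and 0.888 in MII. All 4 values lay near 1 FPKM, and no comparison reached more than 0.19 on the log2 scale. Its level was below that of *Gpx1* and *Gpx4* by more than an order of magnitude in every library.

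Of the genes that make glutathione, *Gclc* and *Gclm* encode the catalytic and the modifier subunit of glutamate-cysteine ligase, the rate-limiting step, and *Gss* encodes glutathione synthetase, which adds glycine. *Gclc* (chromosome 9, 77754535 to 77794485, plus strand) was at 3.03 FPKM in GV, 4.46 in TubA-10, 6.30 in TubA-20 and 5.25 in MII. All cultured libraries were above GV, with TubA-20 the highest, by 0.63 (MII), 0.44 (TubA-10) and 0.86 (TubA-20) on the log2 scale. The difference in TubA-20 passed 2-fold with a pseudocount of 0.1 (1.03) or 0.01 (1.05) in place of 1. *Gclm* (chromosome 3, 122245557 to 122270732, plus strand) was at 40.7 FPKM in GV, 45 in TubA-10, 43.5 in TubA-20 and 40.8 in MII. It was the flattest of the abundant members, with a largest log2 difference of 0.14. With the median change of the 9193 genes set to 0, all 3 cultured libraries were below GV (−0.01 in TubA-10, −0.13 in TubA-20 and −0.14 in MII). The ratio of *Gclm* to *Gclc* was 13.4 in GV, 10.1 in TubA-10, 6.90 in TubA-20 and 7.76 in MII. By FPKM the modifier transcript was thus in excess in all 4 libraries and least so in TubA-20.

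*Gss* (chromosome 2, 155563181 to 155592810, minus strand) was low, at 2.45 FPKM in GV, 0.640 in TubA-10, 1.06 in TubA-20 and 1.1 in MII. GV was the highest and TubA-10 the lowest. Its log2 differences against GV were −1.07 in TubA-10, −0.75 in TubA-20 and −0.72 in MII. With a pseudocount of 0.1 those of MII and TubA-20 passed 2-fold too (−1.09 and −1.14). That of TubA-10 moved to −1.78 with a pseudocount of 0.1 and to −1.92 with 0.01. *Gss* overlaps *Acss2* on the opposite strand over 22544 bases, and *Acss2* was at 0.200 to 0.430 FPKM. *Gsr*, glutathione reductase (chromosome 8, 33652523 to 33698163, plus strand), was at 1.85 FPKM in GV, 1.71 in TubA-10, 0.937 in TubA-20 and 1.1 in MII. GV and TubA-10 formed the higher pair and MII and TubA-20 the lower, with log2 differences against GV of −0.07 in TubA-10, −0.56 in TubA-20 and −0.44 in MII. Under equal *Gapdh* that of TubA-10 turned to 0.10.

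In MII against GV, 2 of the 9 genes were more than 2-fold lower (*Sod1* and *Gpx4*), beside 16.8% of the 10898 genes, and 1 was higher (*Gpx1*), beside 6.14%. In TubA-10 against GV, 3 were lower (*Sod1*, *Gpx4* and *Gss*), beside 11.3%, and 0 higher, beside 1.5%. With equal *Gapdh* *Gpx4* (−0.90) and *Gss* (−0.96) no longer passed 2-fold there, and *Gpx1* did (1.13). TubA-20 against GV had the same genes past 2-fold as MII against GV, 2 lower beside 23.6% and 1 higher beside 15.3%. These comparisons share the GV library and are not independent. Against MII, 1 gene was lower in TubA-10 (*Gpx1*), beside 0.257% of genes lower and 1.04% higher. In TubA-20 against MII 1 gene was lower (*Gpx4*), beside 4.92% of genes lower and 0.661% higher. For TubA-20 against TubA-10 1 gene was lower (*Gpx4*), beside 11.1% of genes lower and 1.33% higher. None of the 9 was more than 2-fold higher in these last 3 comparisons. With so few genes, 1 or 2 calls near such shares say little about the group, and the median log2 difference of the 9 lay within 0.10 of 0 in each comparison, near that of all genes (0.00 against 0.04 in MII against GV, 0.02 against 0.08 in TubA-10 against GV, and 0.09 against 0.07 in TubA-20 against GV). The call of *Gpx1* in TubA-10 against MII was the rarest, since 28 of the 10898 genes passed 2-fold in that direction.

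The order of the libraries is read beside how often it occurs. *Gpx4* and *Gsr* had the order GV, TubA-10, MII, TubA-20 from high to low, which 22.6% of genes had. *Gclc* and *Cat* had the reverse order, found in 24.3%. The order of *Sod1* (GV, MII, TubA-10, TubA-20) was found in 5.85% of genes, that of *Sod2* (TubA-20, TubA-10, MII, GV) in 6.85% and that of *Gpx1* (MII, TubA-20, TubA-10, GV) in 6.58%. Those of *Gss* (GV, MII, TubA-20, TubA-10) and *Gclm* (TubA-10, TubA-20, MII, GV) were found in 1.48% and 2.14%. The orders of *Sod2* and *Gclm* rest on small steps between the cultured libraries and changed under 4 of 4 scalings, while that of *Gss* changed under none. Equal *Gapdh* left 5 of the 9 orders as they were, and the other 3 scalings 6 or 7.

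**Figure D3:**
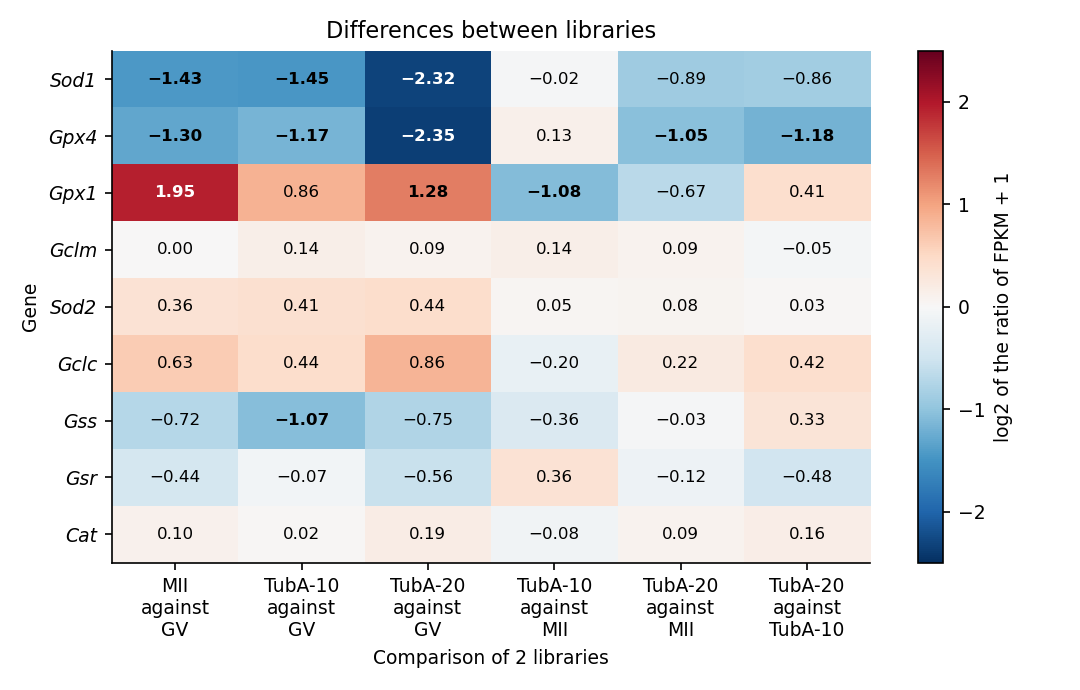
Log2 of the ratio of FPKM + 1 for the 9 genes (rows) in 6 comparisons of 2 libraries (columns), in colour from blue (lower) to red (higher) with the value printed and those past 2-fold in bold. *Sod1* and *Gpx4* share the deepest blue in TubA-20 against GV (−2.32 and −2.35), and *Gpx1* has the strongest red in MII against GV (1.95).

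For each gene, those with the most similar course were found among 7897 genes with at least 5 FPKM in some library. The measure was the Euclidean distance over the 3 log2 differences from GV, on the scale of FPKM + 1. That scale shrinks differences at low values, so the matches of *Gss*, *Gsr* and *Cat* to more abundant genes hold on it alone. *Gss* went from 2.45 FPKM in GV to 0.640 in TubA-10, and its nearest gene *Gmeb1* from 16.3 to 7.02. The closest to *Gpx4* were *Etfb*, a subunit of the electron transfer flavoprotein, at a distance of 0.0539, and the ribosomal protein gene *Rpl31* at 0.0977. *Etfb* was at 139.9 FPKM in GV, 62.4 in TubA-10, 26.7 in TubA-20 and 54.4 in MII, nearly in proportion to *Gpx4*. *Sod1* had *Atp2c2* (0.0714) and *Tefm* (0.0801). *Gpx1* had no close neighbour, with *Chd2* at 0.239 and *Ubl3* at 0.316, further than the first neighbour of any other of the 9. *Chd2* was at 0.995 FPKM in GV and 5.83 in MII, low values at which the scale shrinks differences. *Ubl3* was at 32.7, 58.5, 69.7 and 152 FPKM in GV, TubA-10, TubA-20 and MII, with MII the highest as in *Gpx1*. *Gclc* was matched most closely of all, by *Usp16* (0.0158) and the mismatch repair gene *Msh6* (0.0262). The others were *Pam16* and *Mrps28* for *Gsr* (0.0349 and 0.0635), *Gmeb1* for *Gss* (0.0986), *Mctp2* for *Gclm* (0.0369), *Pou4f1* and *Hspa9* for *Cat* (0.0294 and 0.0519), and *Miox* and *Slc25a32* for *Sod2* (0.0340 and 0.0510).

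The 3′ UTR is where stored oocyte mRNA carries its signals, the AAUAAA hexamer that directs cleavage and polyadenylation, and the cytoplasmic polyadenylation element, a U-rich motif near it through which CPEB lengthens the tail during maturation. The 3′ ends of the 3 genes that moved most are shown for that reason, 30 bases each, 5′ to 3′ with the hexamer in capitals as DNA (AATAAA or the variant form ATTAAA).
Sod1 end: ccctcaaaccATTAAActgtaatctgaaga
Gpx4 end: tgccttgtgggAATAAAatgtagaaatgtg
Gpx1 end: cactactaagAATAAAgtgctgaatatcag
They lie at chr16:90226297-90226326, chr10:80056410-80056439 and chr9:108340311-108340340 on the plus strand, with the hexamer starting 23, 19 and 23 bases from the annotated transcript end. *Sod1*, with a 3′ UTR of 72 bases, has the variant hexamer, and *Gpx4* and *Gpx1*, with 221 and 207 bases, the usual one.

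For the principal transcript of each gene, the 3′ UTR was searched on the sense strand for both hexamers, for the polyadenylation element as TTTTAT or as TTTTAAT, and for ATTTA, the core of AU-rich elements. A hexamer lay in the last 40 bases of 7 of the 9 genes, all but *Gsr* and *Cat*, and of 76.5% of 10685 genes with a 3′ UTR and at least 1 FPKM. The polyadenylation element in either form lay nowhere in the 3′ UTR of 4 genes, *Sod1*, *Gpx1*, *Gpx4* and *Gss* (415 bases), and somewhere in that of the other 5, against 59.4% of all genes. Only *Gsr* (868 bases) had one within the last 100 bases, as 19.6% of genes did. It is shown with the element in capitals.
Gsr element: ttgttttgttTTTTATgaaaactgttccaa
That stretch is chr8:33698087-33698116 on the plus strand, and the element starts 67 bases from the transcript end. *Gclm* (4335 bases) and *Sod2* (4963 bases) have long 3′ UTRs with 5 and 11 copies of TTTTAT, *Gclc* has 1234 bases and *Cat* 907. ATTTA was found in *Gsr*, *Gclc*, *Gclm*, *Cat* and *Sod2*, the same 5 genes, with 3 to 12 copies, and in 66.0% of all genes.

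The 5 genes with such elements, which have the longer 3′ UTRs, stayed within 0.86 on the log2 scale in every comparison, while the 4 without were the 4 that passed 2-fold somewhere. With the smaller pseudocounts *Gclc*, which has the element, passed 2-fold too. Over all genes the element was counted in the last 100 bases, where of these 5 only *Gsr* has it. With it there, 11.1% of genes were more than 2-fold lower and 24.4% higher in TubA-20 against GV, and without it there 26.6% and 13.0%. In MII against GV the shares were 8.89% lower and 9.70% higher with it, and 18.7% and 5.18% without. For TubA-10 against GV they were 5.69% and 1.34% with it, and 12.6% and 1.43% without. How genes with it anywhere in the 3′ UTR changed was not counted. Longer sequences hold more matches by length alone, so motif and length cannot be told apart here. Over all genes the difference from GV went with 3′ UTR length, split into 4 classes of equal size after the values had been seen. In the class with the shortest 3′ UTRs, up to 356 bases, the median log2 difference was −0.27 in TubA-10, −0.68 in TubA-20 and −0.49 in MII, and 24.4%, 42.4% and 33.2% of genes were more than 2-fold lower than in GV. In the longest class, from 1932 bases, the medians were 0.23, 0.40 and 0.32, with 5.24%, 11.8% and 7.71% of genes more than 2-fold lower and 2.28%, 19.5% and 9.85% higher. *Sod1*, *Gpx4* and *Gpx1* all belong to the shortest class. *Sod1* and *Gpx4* were below its median in each cultured library, and *Gpx1* was above it, in MII among the 2.62% of that class more than 2-fold higher than GV and in TubA-20 among 8.38%. *Sod2* and *Gclm* are in the longest class. In the same order of libraries *Sod2* was at 0.41, 0.44 and 0.36, and *Gclm* lay below the class median at 0.14, 0.09 and 0.00. What part length or motifs have in these differences was not tested.

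**Figure D4:**
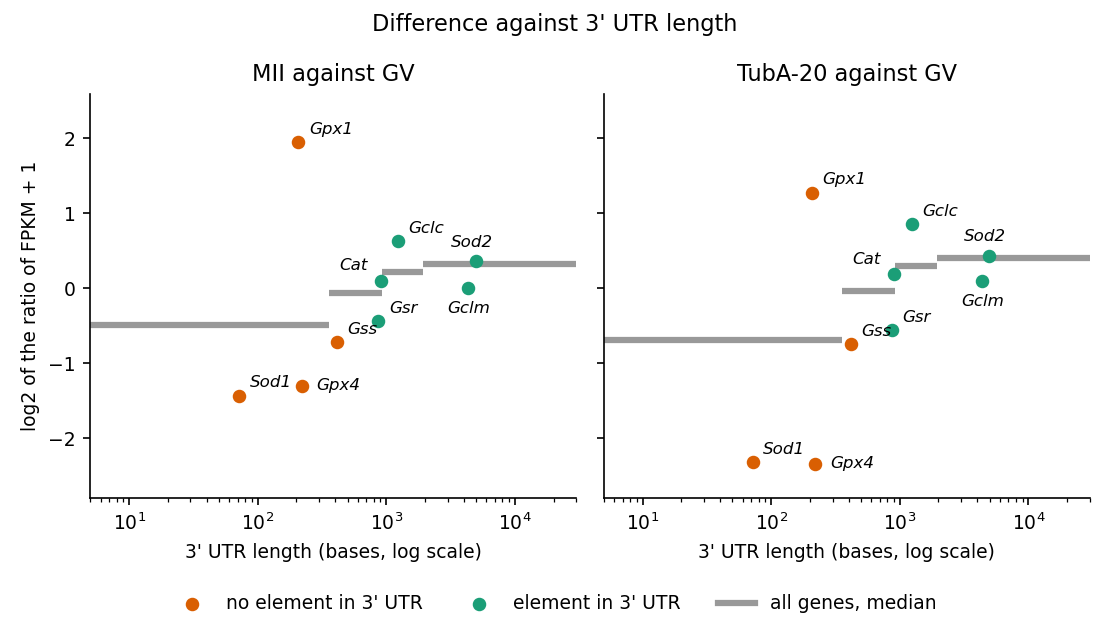
Log2 of the ratio of FPKM + 1 against 3′ UTR length in bases (log axis) for MII and TubA-20 against GV, with orange points for genes without the polyadenylation element, green for those with it, and grey lines at the median of all genes in each of 4 length classes. *Sod1* and *Gpx4* lie below the grey line of the shortest class (−0.49 and −0.68) and *Gpx1* above it, while the 5 green points stay within 0.86 of 0.

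The rest of the pathway was taken as 10 lists of 111 genes, of which 79 had at least 1 FPKM in some library. Of these 79, MII had 23 more than 2-fold lower and 4 higher than GV, TubA-10 had 15 lower and 0 higher, and TubA-20 had 26 lower and 11 higher. Among all genes MII had 16.8% lower and 6.14% higher, TubA-10 had 11.3% lower and 1.5% higher, and TubA-20 had 23.6% lower and 15.3% higher. The counts by list that follow stand beside the same shares. Against MII, TubA-10 had 0 lower and 3 higher, beside 0.257% and 1.04% of all genes, and TubA-20 had 7 lower and 0 higher, beside 4.92% and 0.661%.

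Among the other glutathione peroxidases 3 of 6 genes reached 1 FPKM, and *Gpx3* and *Gpx6* were the most abundant. *Gpx3*, the secreted form, was at 11.3 FPKM in GV, 16.9 in TubA-10, 42.1 in TubA-20 and 25.6 in MII. *Gpx6* was at 15.1, 24.0, 36.5 and 21.5. Both were thus lowest in GV and highest in TubA-20, with log2 differences of 1.81 and 1.22 there, whereas *Gpx1* was highest in MII.

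Glutathione S-transferases, which attach glutathione to other molecules, had 15 of 25 genes at 1 FPKM or more. In TubA-20 9 of them were more than 2-fold lower than in GV, where 23.6% of all genes were, and 2 higher, beside 15.3%. By the same measure MII had 6 lower and 1 higher, and TubA-10 had 6 lower and 0 higher. The median log2 difference was −1.35 in TubA-20 beside 0.07 for all genes, −0.74 in MII beside 0.04 and −0.44 in TubA-10 beside 0.08. *Gstt2* went from 139 FPKM in GV to 32 in TubA-10, 9.36 in TubA-20 and 29.9 in MII, the largest difference in the list (−3.75 in TubA-20). *Gstm5* stood at 269.8 FPKM in GV, 419.9 in TubA-10, 893 in TubA-20 and 629.7 in MII, and *Mgst3* at 267, 366, 618 and 365. Both were highest in TubA-20. *Gsta4*, the most abundant of the list in GV and named after its values had been seen, went the other way, from 341 FPKM in GV to 39.1 in TubA-20.

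The 4 glutaredoxins, which use glutathione to reduce protein disulphides or carry iron-sulphur clusters, all lay below GV in each cultured library. More than 2-fold, 1 was lower in TubA-10, 3 in MII and 4 in TubA-20, beside 11.3%, 16.8% and 23.6% of all genes. *Glrx5*, a mitochondrial one, was at 640.2 FPKM in GV, 338 in TubA-10, 83.1 in TubA-20 and 226 in MII. *Glrx* was at 351, 257, 123 and 128. *Glrx5* was thus lower in TubA-20 than in MII, by 1.43 on the log2 scale, as was *Glrx2*, also mitochondrial, by 1.02 (2.25 FPKM in TubA-20 and 5.59 in MII), while *Glrx* was nearly level between them.

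In the list of glutathione breakdown and recycling 7 of 12 genes reached 1 FPKM, and in each cultured library 3 were more than 2-fold lower than in GV, *Ggt1*, *Oplah* and *Cndp2*, with 0 higher by as much. *Ggt1*, gamma-glutamyltransferase, was at 26.1 FPKM in GV, 8.23 in TubA-10, 2.48 in TubA-20 and 5.67 in MII. *Ggct* was near level at 243 to 311 FPKM, and *Chac2* was at 6.61, 9.75, 12.3 and 13.6. Cysteine and glutamate supply had 6 of 10 genes at 1 FPKM or more, with 0 lower by 2-fold in any cultured library against GV and 1 higher in TubA-20 alone, *Cth*, which makes cysteine from cystathionine. *Cth* was at 12.8 FPKM in GV, 20.5 in TubA-10, 32.4 in TubA-20 and 23.2 in MII, the order that *Gclc* had. *Slc3a2* (98.8 to 173 FPKM) and *Glud1* (20.4 to 34.0 FPKM) were lowest in GV as well.

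For NADPH supply, which *Gsr* depends on, 9 of 14 genes reached 1 FPKM. *G6pdx*, the entry enzyme of the pentose phosphate pathway, was lower in every cultured library, at 164 FPKM in GV, 60.3 in TubA-10, 39.3 in TubA-20 and 57.1 in MII. *Nadk*, which makes NADP from NAD, was at 16.5 FPKM in GV, 27.4 in TubA-10, 51.3 in TubA-20 and 32.2 in MII, and was higher by 2-fold in TubA-20 alone. *Mthfd2*, a mitochondrial folate enzyme, was at 116 FPKM in GV and 178 to 216 in the cultured libraries.

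Of the NRF2 pathway, the transcription factor route to *Gclc*, *Gclm* and other antioxidant genes, 12 of 15 genes reached 1 FPKM, with 2 lower and 1 higher by 2-fold both in MII and in TubA-20. *Nfe2l2*, which encodes NRF2 and is given outside the rule for named genes, was at 5.44 FPKM in GV, 8.82 in TubA-10, 11.2 in TubA-20 and 9.96 in MII. *Fth1*, ferritin heavy chain, was at 515 FPKM in GV, 231 in TubA-10, 93.2 in TubA-20 and 104 in MII. *Mafg* was at 4.42, 6.20, 10.8 and 9.93, and *Rbx1* at 260.4 to 409. *Fth1* was thus lower in the cultured libraries, as *Sod1* was, while *Nfe2l2* and *Mafg* were higher.

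The selenoprotein synthesis list, on which *Gpx1* and *Gpx4* both depend, had 8 of 9 genes at 1 FPKM or more. *Pstk*, which phosphorylates the serine on the selenocysteine tRNA, was at 40.6 FPKM in GV, 18.8 in TubA-10, 8.50 in TubA-20 and 17.3 in MII, a course like that of *Gpx4*. *Secisbp2l* was at 25.5, 51.7, 64.5 and 69.8, lowest in GV and highest in MII as *Gpx1* was. *Trnau1ap* was at 31.6 to 60.0 FPKM and highest in TubA-20, as were *Sephs1*, *Sephs2*, *Sepsecs* and *Secisbp2*. *Ccs*, the chaperone that loads copper into SOD1, was at 16.6 FPKM in GV, 10.2 in TubA-10, 2.55 in TubA-20 and 7.53 in MII. On the log2 scale it was at −1.05 in MII and −2.31 in TubA-20 against GV, beside −1.43 and −2.32 for *Sod1*, and at −1.26 in TubA-20 against MII. *Atox1*, which carries copper to the secretory pathway, was at 263 to 364 FPKM, and the extracellular *Sod3* was at 0.0287 in GV and at 0 in the others.

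The 13 peroxiredoxin and thioredoxin genes are the other peroxide-removing system. More than 2-fold from GV, 6 were lower and 0 higher in MII, with a median log2 difference of −0.65 beside 0.04 for all genes. By the same measure TubA-20 had 5 lower and 2 higher, with a median of −0.63 beside 0.07, and TubA-10 had 1 lower and 0 higher, with a median of −0.16 beside 0.08. Against MII the list had a median of 0.32 for TubA-10 and of 0.14 for TubA-20. *Prdx1* was at 983 FPKM in GV, 1313 in TubA-10, 2210.0 in TubA-20 and 1277 in MII. *Prdx2* was at 1379.7 in GV, 772 in TubA-10, 647 in TubA-20 and 588 in MII. Both exceeded *Sod1* in every library, with the largest ratio in TubA-20. *Prdx3*, the mitochondrial form, was at 29.7, 35.6, 5.46 and 12.9 FPKM and was the only one of the 13 past 2-fold in TubA-20 against MII (−1.11).

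**Figure D5:**
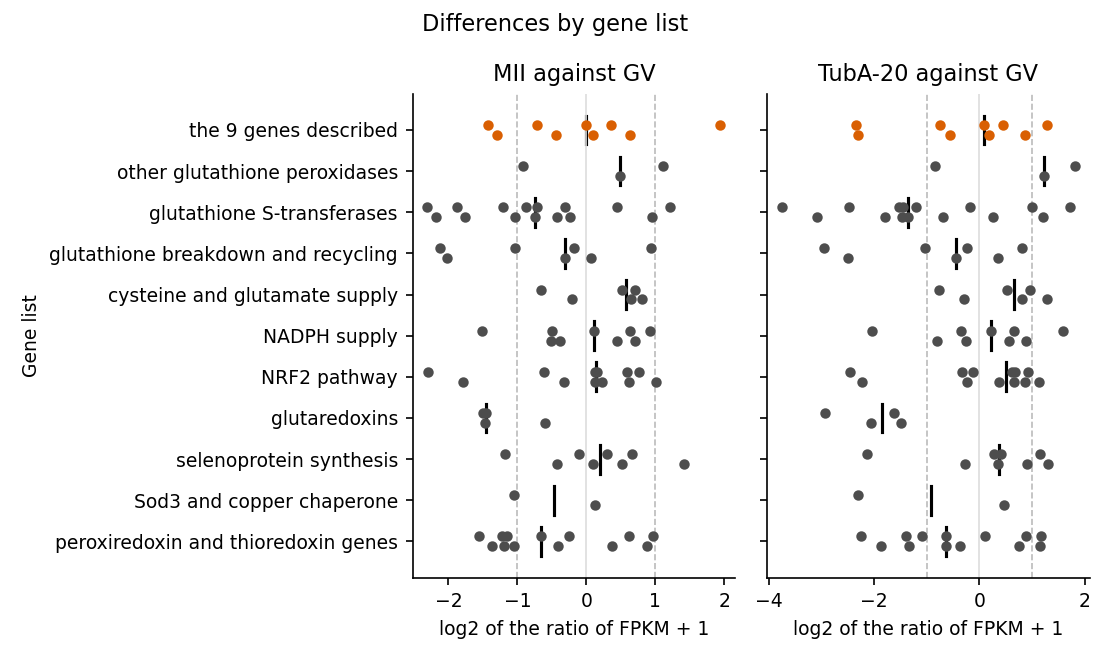
Log2 of the ratio of FPKM + 1 for MII (left) and TubA-20 (right) against GV, 1 point per gene with at least 1 FPKM in some library, by list, with the list median as a black line, dashed lines at 2-fold and the 9 genes in orange. The glutaredoxins lie to the left of 0 in both panels, and the median of the glutathione S-transferases is −0.74 in MII and −1.35 in TubA-20.

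*Sod1*, *Gpx4*, *Gss* and *Gsr* were highest in GV, the library in which *Inha* was at 7.50 FPKM and in which 1 of the 12 cumulus and granulosa markers was at 0, against 3 in TubA-10 and MII and 5 in TubA-20. Other markers of that list were lowest in GV, among them *Serpine2* and *Cyp19a1* (6.14 FPKM in GV and 10.3 in TubA-20), as was the sum of the list, at 163 FPKM in GV, 261 in TubA-10, 426 in TubA-20 and 307 in MII. Of the oocyte markers, TubA-20 had *Zp1*, *Zp2*, *Zp3* and *Figla* below GV by more than 2-fold, and *Gdf9* and *Oosp1* above it by as much. Set against MII, *Zp2* (−1.41), *Zp3* (−1.21) and *Figla* (−1.68) were lower in TubA-20, the library in which *Sod1* and *Gpx4* were lowest. The part of either cell type in the values of the 9 genes was not tested. The deeper libraries, TubA-10 and MII, lay between GV and TubA-20 for *Sod1* and *Gpx4*. The part of depth was not tested.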

How the data were processed

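Reads were aligned with STAR 2.5.0 and summarised with Cufflinks and Cuffdiff 2.2.1 on mm10, per the submitters' processing notes, from stranded mRNA libraries (1 per condition). The sources differ on the RNA kit (TRIzol in the labels, PicoPure in the methods) and on the gene model (UCSC named, Ensembl identifiers in the table). The authors deposited FPKM values, already divided by transcript length and mapped fragments. Read counts are not used here, so no interval or count test was made, and depth was judged from ratios of values between 0.001 and 0.15 FPKM.

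Identifiers were joined to GENCODE M21 on GRCm38. Of 21959 entries 165 had no symbol, and entries sharing one were added up, leaving 21957 genes. Log2 ratios used a pseudocount of 1 FPKM. Shares of all genes were taken over the 10898 with at least 1 FPKM in some library. Codons, 3′ UTRs and copies (BLAST, 90% identity over 200 bases) came from the APPRIS principal transcript, with positions on GRCm38.

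The genes, lists and comparisons were chosen with earlier results of these data known. Genes named were the 9 members, the 2 genes of each pathway list with the highest FPKM and its largest rise and fall from GV to TubA-20 (at least 5 FPKM), the 2 genes nearest to each member, and the highest marker of each cell type. Other genes are named where a count or a mechanism turns on them. Some genes that this rule names are not reported here. Alternatives were pseudocounts of 0.1 and 0.01, thresholds of 1.5- and 3-fold, 4 scalings of the libraries, other minimum levels and the highest entry of a shared symbol. Scripts were tested on simulated data and ran in Python 3.11.15 with numpy 2.4.6, pandas 2.3.3 and matplotlib 3.10.9.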

Additional observations from a re-analysis of the deposited data

Results flagged for a closer look

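In 4 of the 9 genes the TubA libraries lay on opposite sides of MII, each condition being 1 library, and the difference was not tested. Such courses were common, since 22.6% of all genes had the order of *Gpx4* and *Gsr* and 24.3% that of *Gclc* and *Cat*. *Gpx4* was 0.13 above MII in TubA-10 and at −1.05 in TubA-20 on the log2 scale, so TubA-20 minus TubA-10 was −1.18. *Gsr* was at 0.36 and −0.12, with a difference of −0.48. *Gclc* was at −0.20 and 0.22, with a difference of 0.42, and *Cat* at −0.08 and 0.09, with a difference of 0.16. Of these 4 genes *Gpx4* alone passed 2-fold, and *Gsr* and *Cat* were near 1 FPKM. The count depends on scaling. With equal *Gapdh* the TubA libraries of *Sod1*, *Sod2* and *Gclm* also lay on opposite sides of MII. With equal upper quartiles those of *Sod2* and *Gclm* did, and with equal FPKM sums those of *Gclm*.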

How the results depend on the processing

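Of 378 log2 differences of the 9 genes under alternative pseudocounts, scalings and joins of entries, 348 kept their direction and side of 2-fold, 2 no longer passed it, 11 newly passed it and 17 changed sign. The changes of sign were small values. With the median change set to 0, which moves values against GV by −0.16 in TubA-10, −0.23 in TubA-20 and −0.14 in MII, *Gclm* became −0.013 in TubA-10, −0.13 in TubA-20 and −0.14 in MII against GV, *Cat* −0.047 in TubA-10 against GV, and *Sod2* −0.029 in TubA-20 against TubA-10. Equal *Gapdh* raises the log2 of plain FPKM by 0.27 in TubA-10 and 0.23 in MII. With it *Gsr* became 0.10 in TubA-10 against GV and *Sod1* 0.014 in TubA-10 against MII. *Gclm* became −0.064 and *Sod2* −0.070 in TubA-20 against MII, and *Sod2* −0.15 in TubA-20 against TubA-10. With equal FPKM sums *Sod2* became −0.0059 in TubA-10 against MII, −0.055 in TubA-20 against MII and −0.049 in TubA-20 against TubA-10, and *Gclm* −0.048 in TubA-20 against MII. With equal upper quartiles *Gclm* became −0.026 and *Sod2* −0.034 in TubA-20 against MII, and *Sod2* −0.053 in TubA-20 against TubA-10.

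Counts of members moved as follows. At 3-fold, 0 genes were lower in MII or TubA-10 against GV, in either TubA library against MII or in TubA-20 against TubA-10, and 0 were higher in TubA-20 against GV, where *Sod1* and *Gpx4* still passed as lower. At 1.5-fold, against GV 2 genes were higher in MII, 2 in TubA-20 and 1 in TubA-10, and 3 were lower in TubA-20 against MII and 2 in TubA-20 against TubA-10. With pseudocounts of 0.1 and 0.01, 2 were higher in TubA-20 against GV. With these pseudocounts and at 1.5-fold, 3 in place of 2 were lower both in MII and in TubA-20 against GV. With equal *Gapdh*, 1 gene was lower (*Gpx4* moved to −0.90 and *Gss* to −0.96) and 1 higher (*Gpx1*, 1.13) in TubA-10 against GV, and 2 were lower in TubA-20 against MII and 2 in TubA-20 against TubA-10. With equal FPKM sums or upper quartiles 2 were lower in TubA-20 against MII. The added gene in these scalings was *Sod1*. The weight of the pseudocount and the scale factors follow from the settings themselves, and the cause of any other shift was not tested. No paired analysis was possible because each condition has 1 library, and no replicate could be left out. Without a minimum level the shares of all genes past 2-fold were smaller (8.34% lower in MII against GV). *Cat*, *Gsr* and *Gss* lie near 1 FPKM, and how many fragments stand behind such values was not examined.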

Other observations

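*Gpx1* and *Gpx4* were set beside the other selenoprotein genes, a list taken after the values had been seen from the genes with an annotated selenocysteine in GENCODE M21. Of 24 such genes, 18 had at least 1 FPKM in some library. In MII 6 of them were more than 2-fold lower than in GV (*Gpx4*, *Msrb1*, *Selenoh*, *Selenom*, *Selenow* and *Txnrd2*) and 2 higher (*Gpx1* and *Gpx3*). TubA-10 had 2 lower (*Gpx4* and *Msrb1*) and 0 higher. In TubA-20 7 were lower (*Gpx4*, *Msrb1*, *Selenoh*, *Selenom*, *Selenoo*, *Selenos* and *Selenow*) and 3 higher (*Gpx1*, *Gpx3* and *Sephs2*). Among all genes MII had 16.8% lower and 6.14% higher, TubA-10 had 11.3% lower and 1.5% higher, and TubA-20 had 23.6% lower and 15.3% higher, so several of these counts lie near the share of all genes. The median log2 difference of the 18 was −0.07 in TubA-10, 0.01 in TubA-20 and −0.25 in MII.

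*Selenow*, the most abundant, was at 593 FPKM in GV, 506 in TubA-10, 252 in TubA-20 and 261 in MII. *Selenoh* had the same pattern at 50.2, 41.6, 17.3 and 17.4, with GV and TubA-10 high and TubA-20 and MII low, unlike *Gpx4*, which was already low in TubA-10. The endoplasmic reticulum selenoproteins *Selenof* (104, 168, 186 and 140 FPKM) and *Selenok* (202, 205, 219.6 and 159 FPKM) stayed within 2-fold, whereas *Selenom* and *Selenos* of the same compartment were at −1.42 and −1.30 in TubA-20 against GV. *Msrb1*, a methionine sulphoxide reductase, was at 5.48, 2.16, 0.167 and 2.01 FPKM, and was at −1.36 in TubA-20 against MII. In that comparison 3 of the 18 were more than 2-fold lower, *Gpx4* (−1.05), *Msrb1* and *Selenos* (−1.05), beside 4.92% of all genes. In TubA-10 against MII *Gpx1* was lower (−1.08) and *Selenoh* higher (1.21), beside 0.257% and 1.04% of all genes.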
